A study of Mus musculus with 8 samples.

Results

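The long noncoding RNAs (lncRNAs) are transcripts that are not translated into protein, and those examined here were the intergenic and antisense classes of the GENCODE M21 annotation. A region was included when it lay on an autosome within 1 kb of an annotated start site of a lincRNA or antisense gene and more than 1 kb from every protein-coding start site. This gave 2307 H3K27-me3 regions of 93853 in all, 1436 of 59267 in the AAV-Cre list and 871 of 34586 in the AAV-GFP list. Livers were from male C57BL/6 animals with floxed Jmjd3. Virus, either AAV-TBG-Cre or AAV-GFP, was given when the animals were 8 weeks old, and after 12 further weeks livers were taken following a fast of 16 h. Both groups thus carried the floxed Jmjd3 allele, and they differed in the virus. Cre was driven by the TBG promoter, which is active in hepatocytes, so other liver cells would keep JMJD3, and the labels name the material as primary liver cells while the protocol describes minced liver. The series holds 8 libraries, 2 of H3K27-me3 and 2 of input DNA per virus.

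H3K27-me3 is deposited on histone H3 by the Polycomb repressive complex 2 and is removed by demethylases such as JMJD3 (Kdm6b). It is found over silent developmental genes, often as broad domains around stretches rich in CpG dinucleotides. Many lncRNA genes lie beside such genes, in Hox clusters and next to homeobox genes in particular. Others host microRNAs, belong to imprinted domains, or are expressed in most tissues. A start site of a lncRNA can therefore carry the mark as part of the domain of a neighbour or as a region of its own.

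The base sequence under the regions is shown for 9 of them, picked as examples from the named regions. They do not stand for the CpG content of regions called in both lists or in 1 list, which is given after them. Each of the first 7 is the window of 200 bases around the summit of an AAV-Cre region, on the plus strand of GRCm38, with every CG in capitals. The regions at Gm30655 (chr13:63572571-63572770, 19 CG), Rncr4 (chr6:30174329-30174528, 8 CG) and H19 (chr7:142578131-142578330, 14 CG) overlapped AAV-GFP regions.
Gm30655: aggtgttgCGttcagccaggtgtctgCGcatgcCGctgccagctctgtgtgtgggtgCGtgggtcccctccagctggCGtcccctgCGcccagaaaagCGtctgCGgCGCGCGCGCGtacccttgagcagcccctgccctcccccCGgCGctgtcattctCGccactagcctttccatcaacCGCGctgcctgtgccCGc
Rncr4: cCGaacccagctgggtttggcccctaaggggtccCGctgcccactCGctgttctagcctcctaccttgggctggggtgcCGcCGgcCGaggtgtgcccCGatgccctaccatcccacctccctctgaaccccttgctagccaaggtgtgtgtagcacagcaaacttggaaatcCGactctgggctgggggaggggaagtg
H19: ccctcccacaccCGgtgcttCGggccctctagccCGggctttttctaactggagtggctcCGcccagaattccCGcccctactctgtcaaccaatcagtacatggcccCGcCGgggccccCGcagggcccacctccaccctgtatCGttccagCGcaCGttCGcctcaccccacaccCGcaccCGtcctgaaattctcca

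The regions at Meg3 (chr12:109541341-109541540, 7 CG), Gm28182 (chr9:74854214-74854413, 9 CG), 2810429I04Rik (chr13:3478463-3478662, 14 CG) and Pvt1 (chr15:62037684-62037883, 3 CG) overlapped no AAV-GFP region.
Meg3: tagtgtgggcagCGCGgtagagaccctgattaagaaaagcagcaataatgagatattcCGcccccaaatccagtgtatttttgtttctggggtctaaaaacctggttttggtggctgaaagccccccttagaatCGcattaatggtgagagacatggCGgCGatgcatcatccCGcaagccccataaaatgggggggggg
Gm28182: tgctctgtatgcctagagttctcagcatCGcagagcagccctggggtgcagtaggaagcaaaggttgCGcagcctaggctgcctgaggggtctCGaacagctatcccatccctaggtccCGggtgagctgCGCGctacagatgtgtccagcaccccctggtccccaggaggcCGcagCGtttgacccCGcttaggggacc
2810429I04Rik: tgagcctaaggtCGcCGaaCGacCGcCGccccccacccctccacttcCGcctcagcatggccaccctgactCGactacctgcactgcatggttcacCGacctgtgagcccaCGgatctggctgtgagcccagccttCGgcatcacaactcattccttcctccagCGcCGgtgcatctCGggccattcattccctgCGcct
Pvt1: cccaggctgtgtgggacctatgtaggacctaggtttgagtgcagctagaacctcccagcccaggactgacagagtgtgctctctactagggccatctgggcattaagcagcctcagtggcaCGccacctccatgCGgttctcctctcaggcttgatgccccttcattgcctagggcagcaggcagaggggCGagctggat

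The last 2 are whole AAV-GFP regions that overlapped no AAV-Cre region, at Gm43391 (chr5:15465044-15465187) and Gm2464 (chr3:13475120-13475245). They held 0 CG.
Gm43391: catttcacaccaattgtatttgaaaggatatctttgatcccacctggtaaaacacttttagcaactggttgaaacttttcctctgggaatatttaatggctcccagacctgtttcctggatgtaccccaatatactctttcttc
Gm2464: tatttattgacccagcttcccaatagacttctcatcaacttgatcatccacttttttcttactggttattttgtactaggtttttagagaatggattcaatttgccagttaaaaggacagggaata

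In windows of 200 bases at the summits of the AAV-Cre regions at lncRNA start sites, the median was 5 CG for the 466 that overlapped an AAV-GFP region and 3 for the 970 that did not. All autosomal AAV-Cre regions had a median of 3. At least 10 CG were present in 27% of the overlapping and 5.36% of the other AAV-Cre regions at lncRNA start sites. For the 36 AAV-GFP regions without overlap the median was 2, and 19.4% of them held no CG, against 6.35% of the 835 with overlap.

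Each list was made from both mice of its group, so it holds no values per mouse, and neither the spread between mice nor the depth of each library could be set beside a difference between the viruses. The lists also had different properties as called: the narrowest region was 300 bp in AAV-Cre and 120 bp in AAV-GFP, and 88.5% of the autosomal AAV-Cre regions but 46.8% of the AAV-GFP regions had a q-value of 0.05 or lower. A region present in 1 list is therefore a call and not a measured change in H3K27-me3. The Wilson 95% intervals given below cover counting error only, and neighbouring regions of 1 domain are counted separately in them.

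To see what the marked start sites look like, regions around 6 lncRNA genes are drawn in the map of positions relative to the start site. At C130071C03Rik, a lincRNA 145704 bp from the start site of Mef2c, 3 AAV-Cre regions of 9346, 9783 and 3212 bp lay at its annotated start sites. In AAV-GFP the start sites had 9 regions of 123 to 3695 bp, and the strongest of them, 2490 bp wide, had the highest fold enrichment of the AAV-GFP regions at lncRNA start sites, 9.24. At Rncr4, a noncoding RNA known from the retina, 1 AAV-Cre region of 14815 bp held 7 AAV-GFP regions. At Meg3 and Gm28182 the map showed regions in AAV-Cre and none in AAV-GFP.

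**Figure D1:**
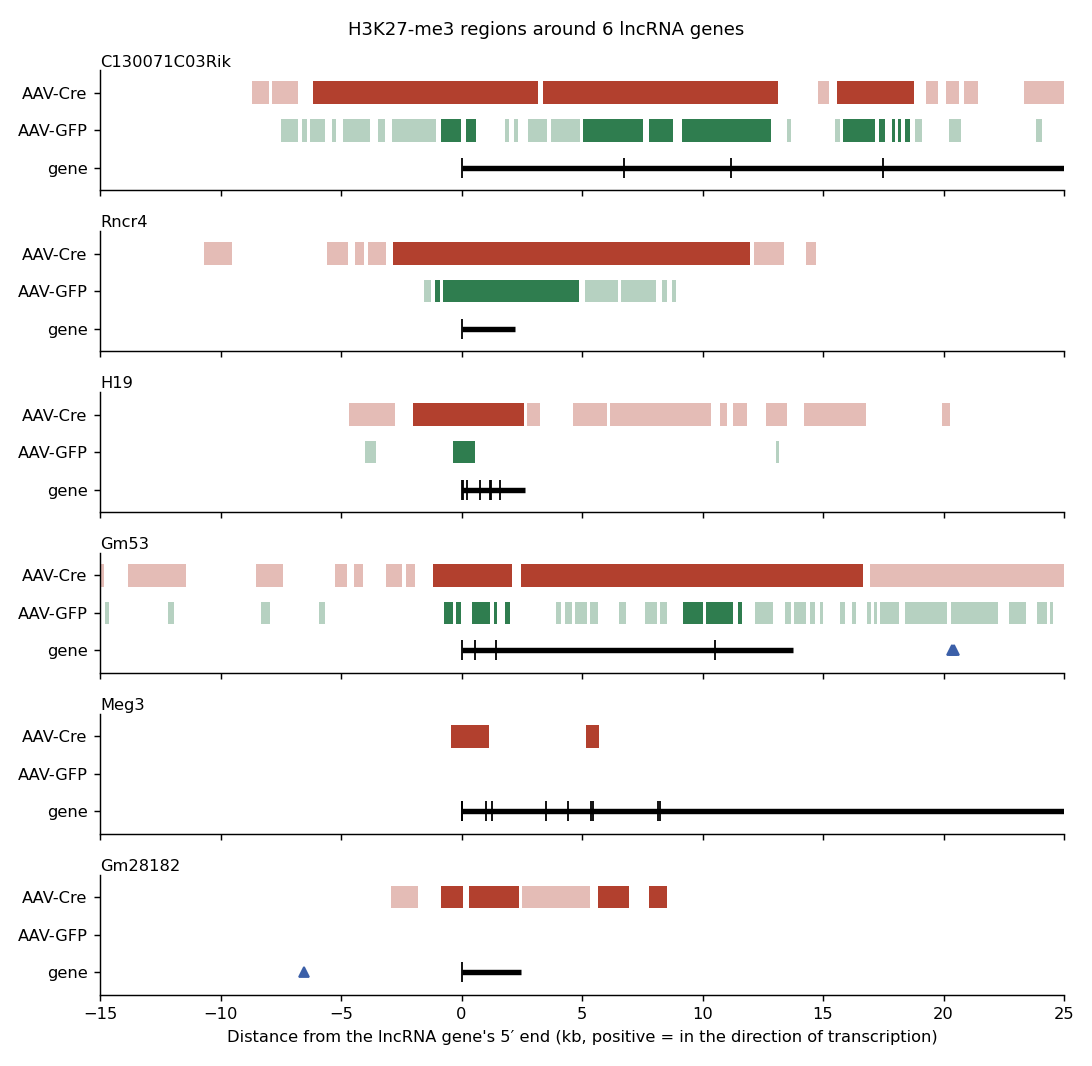
Position of H3K27-me3 regions around 6 lncRNA genes, in kb from the 5′ end of the gene along its direction of transcription, with AAV-Cre regions in red and AAV-GFP regions in green. Full colour marks regions at start sites of any lncRNA gene and pale colour marks other regions. Black ticks are start sites of the named gene only, so a region in full colour can belong to another lncRNA gene. Blue triangles are protein-coding start sites. C130071C03Rik, Rncr4, H19 and Gm53 had regions in both lists, whereas Meg3 and Gm28182 had them in AAV-Cre.

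The AAV-Cre regions at lncRNA start sites had a median width of 1038 bp (interquartile range 584 to 1934 bp, range 300 to 28174 bp) and a median fold enrichment over input of 3.13. They were wider than the list as a whole, whose median was 753 bp, and narrower than regions at protein-coding start sites, with 1950 bp. The AAV-GFP regions at lncRNA start sites had a median width of 287 bp (interquartile range 188 to 620 bp, range 120 to 5659 bp) and a median fold of 2.76, against 231 bp over all AAV-GFP regions and 455 bp at protein-coding start sites. Folds come from separate peak calls and were compared within a list. Of the AAV-Cre regions at lncRNA start sites 16.2% (interval 14.4 to 18.2%) were in the strongest decile of the list by p-value, and of the AAV-GFP regions 15.3% (13 to 17.8%). At protein-coding start sites these shares were 47.8% and 29.9%.

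**Figure D2:**
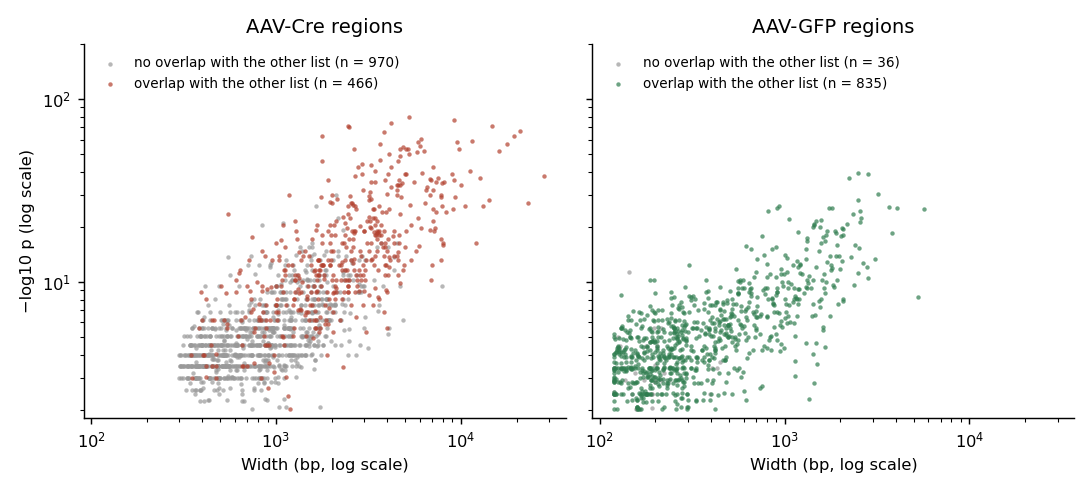
Width in bp against −log10 p, both on log scales, for each region at a lncRNA start site in AAV-Cre (left) and AAV-GFP (right); coloured points overlap a region of the other list and grey points do not. The 466 overlapping AAV-Cre regions reach 28174 bp, while the 36 AAV-GFP regions without overlap are 120 to 445 bp wide.

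Whether both lists marked the same lncRNA start sites was examined by overlap, for which 1 shared base was enough. An AAV-GFP region was met by 466 of the 1436 AAV-Cre regions (32.5%, interval 30.1 to 34.9%), beside 24.1% of all autosomal AAV-Cre regions. This share depended on the setting. It was 18.7% with regions of 300 bp or more, which removes short AAV-GFP regions and leaves all 1436 AAV-Cre regions. A required cover of 0.5 of the AAV-Cre region's length gave 6.55%, and limiting both lists to their 34307 strongest peaks gave 44.5%. Of the 871 AAV-GFP regions, 835 overlapped an AAV-Cre region (95.9%, interval 94.3 to 97.0%), beside 86.3% of all autosomal AAV-GFP regions. Regions at protein-coding start sites overlapped more often, 62.1% (60.9 to 63.3%) in AAV-Cre and 97.6% (97.2 to 98.0%) in AAV-GFP, and regions away from both kinds of start site less often, 19.2% (18.9 to 19.6%) and 83.4% (83.0 to 83.9%). The 835 AAV-GFP regions met 524 different AAV-Cre regions, which shows how far narrow AAV-GFP calls share a wider AAV-Cre call. For 216 of them (25.9%) the AAV-Cre partner was not itself a region at a lncRNA start site, because it reached to within 1 kb of a protein-coding start site, and these 136 AAV-Cre regions had a median width of 6124 bp.

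The overlap followed the strength of a region. In the strongest decile of the AAV-Cre list 91.4% (87.1 to 94.4%) of the 233 regions at lncRNA start sites overlapped AAV-GFP, in the second decile 56.4% (50.1 to 62.5%) of 243, and in the weakest 5.61% (2.6 to 11.7%) of 107. Over all autosomal AAV-Cre regions the same deciles had 94.3%, 55.7% and 4.33%. In each of the 10 deciles the interval for lncRNA start sites contained the value for all AAV-Cre regions. For AAV-GFP this held in the 5 stronger deciles. In the 5 weaker deciles 87.9 to 97.2% of the regions at lncRNA start sites overlapped AAV-Cre, above the 71.4 to 89.0% over all AAV-GFP regions in the same deciles.

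**Figure D3:**
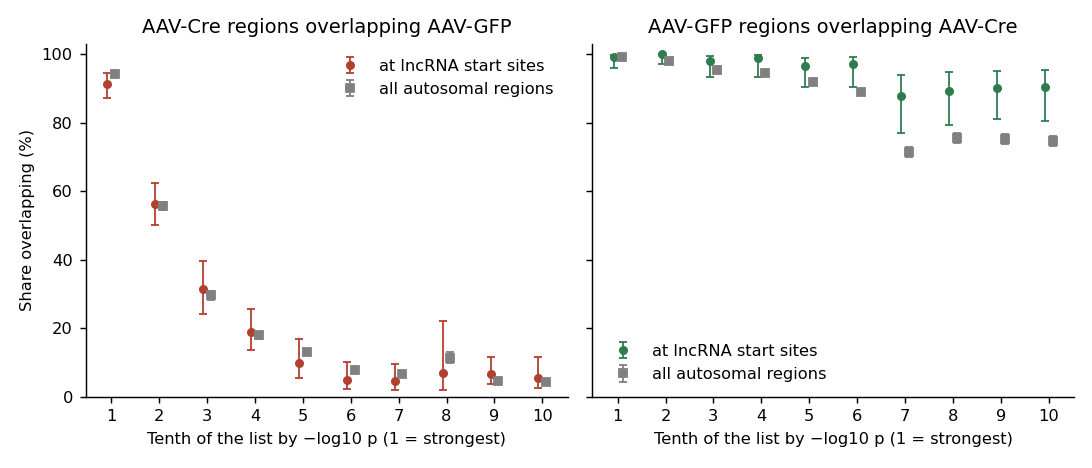
Share of regions that overlap the other list, by decile of the list ordered by −log10 p (1 is the strongest), for regions at lncRNA start sites (coloured circles) and all autosomal regions (grey squares), with Wilson 95% intervals as bars. In AAV-Cre the circles fall from 91.4% to 5.61% and the squares from 94.3% to 4.33%, while in AAV-GFP the circles lie above the squares throughout, with intervals that leave out the squares in deciles 6 to 10.

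The AAV-Cre regions that overlapped an AAV-GFP region were wider, with a median of 2431 bp and a fold of 4.84, than those that did not, with 802 bp and 2.84. In all, 243 of the 466 held more than 1 AAV-GFP region, up to 29, and AAV-GFP regions covered 36.2% of their bases. Of the 970 AAV-Cre regions without overlap, 105 (10.8%) lay within 1 kb of an AAV-GFP region, and 865 (89.2%) had a q-value of 0.05 or lower. The 36 AAV-GFP regions without overlap had a median width of 176 bp and a GC content of 42.6%, against 53.0% for the 835 with overlap. Of these 36, 19 (52.8%) lay within 1 kb of an AAV-Cre region, and 7 (19.4%) had a q-value of 0.05 or lower.

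The regions were then placed relative to the start site. The rule set the distance of the nearest edge, so the positions are given as a description. A start site lay inside 52.4% (49.8 to 54.9%) of the AAV-Cre regions and 26.4% (23.6 to 29.4%) of the narrower AAV-GFP regions. Summits were about evenly split between the sides of the start site, with 46.9% upstream in AAV-Cre and 49.8% in AAV-GFP. By bins of 250 bp, the highest shares of AAV-Cre summits were in the pair of bins next to the start site, 15.0% upstream and 14.4% downstream. The closest start site belonged to a lincRNA for 1048 AAV-Cre and 577 AAV-GFP regions and to an antisense gene for 388 and 294. The closest protein-coding start site was at a median distance of 34178 bp in AAV-Cre and 16238 bp in AAV-GFP. These distances cannot be compared between the viruses. The rule left out wide AAV-Cre regions that reached a protein-coding start site and kept narrow AAV-GFP regions inside them. Introns of protein-coding genes held 17.9% of the AAV-Cre summits and exons 4.81%, beside 32.5% and 9.81% for all AAV-Cre regions.

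**Figure D4:**
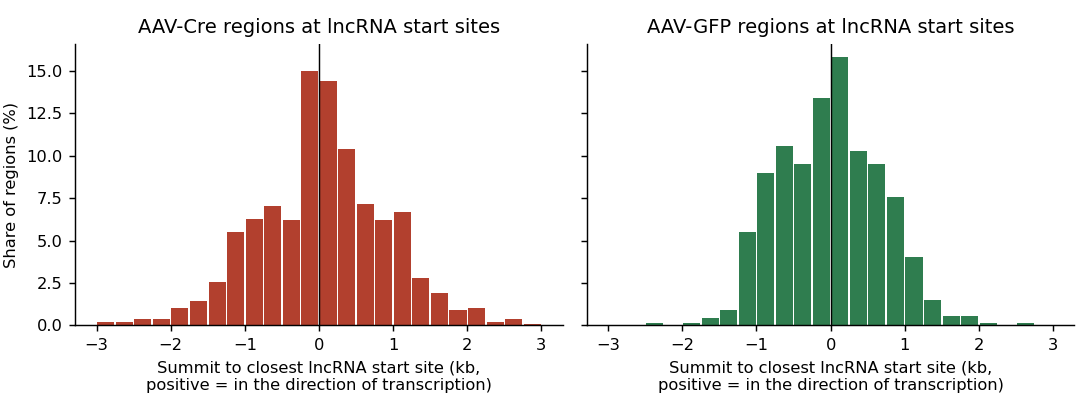
Distribution of region summits around the closest lncRNA start site, in kb along the direction of transcription and in bins of 250 bp, as a share of the 1436 AAV-Cre (left) and 871 AAV-GFP regions (right). The bins next to the start site hold 15.0% and 14.4% of the AAV-Cre summits and 13.4% and 15.8% of the AAV-GFP summits; 23 AAV-Cre and 2 AAV-GFP summits farther than 3 kb are not drawn.

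At the level of genes, 1161 of 8122 autosomal lincRNA and antisense genes had at least 1 AAV-Cre region by the rule, and 537 had an AAV-GFP region. Both lists marked 396 genes, 765 were marked in AAV-Cre alone and 141 in AAV-GFP alone. The last number depended on the rule, since a wide AAV-Cre region that reached a protein-coding start site was left out while narrow AAV-GFP regions inside it were kept. Of those 141 genes, 126 (89.4%) had some AAV-Cre region within 1 kb. When any region within 1 kb counted, a choice made after seeing the data, 1619 genes (19.9%) were marked in AAV-Cre and 784 (9.65%) in AAV-GFP. In that count 769 genes were marked in both lists, 850 (10.5%) in AAV-Cre alone and 15 (0.185%) in AAV-GFP alone. Protein-coding genes were marked within 1 kb in 24.6% (AAV-Cre) and 17.1% (AAV-GFP) of cases.

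Which class of lncRNA was marked more often depended on the rule. With any region within 1 kb, 18.8% (17.8 to 19.9%) of 5209 lincRNA genes and 21.9% (20.4 to 23.4%) of 2913 antisense genes were marked in AAV-Cre, and 8.01% (7.30 to 8.77%) and 12.6% (11.4 to 13.9%) in AAV-GFP. With regions more than 1 kb from protein-coding start sites, the order turned in AAV-Cre, with 16.2% (15.2 to 17.2%) of lincRNA and 10.8% (9.77 to 12.0%) of antisense genes, and in AAV-GFP the intervals of the classes overlapped, with 6.68% (6.03 to 7.39%) and 6.49% (5.65 to 7.44%). Most marked genes had a single region at lncRNA start sites. In AAV-Cre 885 genes had 1 such region, 238 had 2 and 38 had 3 or more, and in AAV-GFP the numbers were 306, 147 and 84.

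The neighbours of the marked lncRNA genes were examined next. The closest protein-coding gene was a developmental transcription factor, defined by families such as homeobox, Sox, T-box and forkhead genes, for 321 of the 8122 lncRNA genes (3.95%). Among genes with an AAV-Cre region by the rule it was so for 97 of 1161 (8.35%, interval 6.90 to 10.1%), and with an AAV-GFP region for 88 of 537 (16.4%, interval 13.5 to 19.8%). These shares cannot be compared between the viruses, because the rule left out wide AAV-Cre regions that reached a protein-coding start site. Narrow AAV-GFP regions inside them were kept. With any AAV-Cre region within 1 kb counted, it was 10.3% of 1619 genes. By any region within 1 kb, the share was 16.3% (13.8 to 19%) of the genes marked in both lists, 4.94% (3.68 to 6.61%) of those marked in AAV-Cre alone and 2.37% (2.03 to 2.77%) of those marked in neither. Neighbours of 1 developmental gene are counted separately here.

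The share of marked genes also followed the CpG content around the gene's 5′ end, taken over a window from 250 bases before to 50 after it. With fewer than 1 CpG per 100 bases, 9.96% (8.86 to 11.2%) of 2570 genes were marked in AAV-Cre and 2.88% (2.30 to 3.6%) in AAV-GFP. With 5 or more, 34.4% (31.4 to 37.4%) and 27.3% (24.6 to 30.1%) of 972 genes were. The median CpG content was 3 per 100 bases for genes marked in both lists, 1.67 for those in AAV-Cre alone, 1.33 for those in neither and 1 for the 15 in AAV-GFP alone. Genes close to a protein-coding start site are included in these shares, and the part that such shared promoters have in them was not tested.

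**Figure D5:**
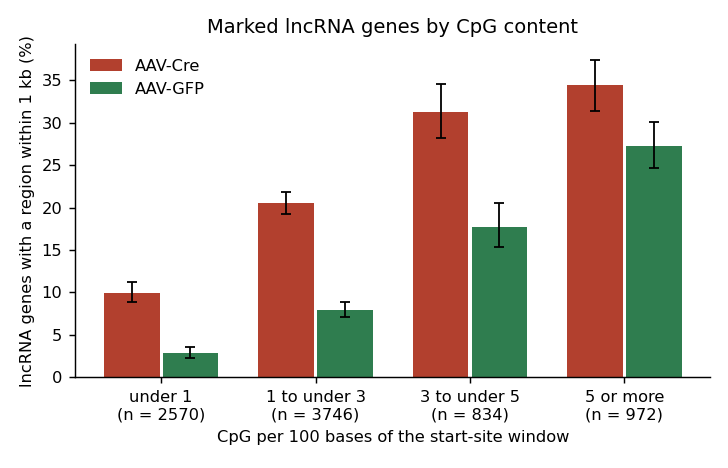
Share of lncRNA genes with any H3K27-me3 region within 1 kb, in 4 classes of CpG per 100 bases of the window at the 5′ end, for AAV-Cre (red) and AAV-GFP (green) with Wilson 95% intervals; n is the number of genes in a class. The share rises from 9.96% to 34.4% in AAV-Cre and from 2.88% to 27.3% in AAV-GFP.

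Named lncRNA genes were taken by role from 5 lists. The first holds antisense and intergenic transcripts of the Hox clusters, which order the body axis, and here 9 of 10 genes had a region within 1 kb in each list, beside 19.9% (AAV-Cre) and 9.65% (AAV-GFP) of all lncRNA genes. The exception, 0610040B10Rik, lies on chromosome 5 next to Zdhhc4 and thus outside the Hox clusters. At Hotair, which lies in the HoxC cluster and is known from work on Polycomb silencing, 1 AAV-Cre region of 29806 bp also covered start sites of Hoxc10 and Hoxc11 and held 24 AAV-GFP regions. At Hottip beyond Hoxa13 the AAV-Cre region spanned 14794 bp with a fold of 14.7. At Hoxb5os the AAV-Cre region spanned 29089 bp over Hoxb4, Hoxb5 and Hoxb6. These wide regions are not among the 1436, because they covered protein-coding start sites, and they were named after their values were seen. At Gm53, a lincRNA 9847 bp from the start site of Hoxb9, 2 AAV-Cre regions of 3310 and 14193 bp stayed in, and they held 5 and 17 AAV-GFP regions, 8 of which, of 130 to 1120 bp, lay within 1 kb of a Gm53 start site. Thus the Hox transcripts lay in long AAV-Cre calls, and the same places carried several short AAV-GFP calls.

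The second list holds transcripts next to other developmental regulators, of which 20 of 21 had an AAV-Cre region and 18 an AAV-GFP region within 1 kb, beside the same 19.9% and 9.65%. By the rule, 7 had AAV-Cre and 12 AAV-GFP regions, beside 14.3% and 6.61% of all lncRNA genes. At the other genes of this list with an AAV-Cre region, each such region lay within 1 kb of a protein-coding start site. At Emx2os the AAV-Cre region spanned 22475 bp, at Pax6os1 28664 bp and at Dlx1as 22877 bp over Dlx1 and Dlx2. Miat, a nuclear RNA of neurons, had an AAV-Cre region of 2689 bp (fold 9.35, −log10 p 38.1) over a start site, with an AAV-GFP region of 1480 bp (fold 6.71, −log10 p 21.4) overlapping it, and a weaker AAV-Cre region of 1032 bp without overlap. Rmst, a transcript of neural development, had 4 AAV-Cre regions of 374 to 1624 bp and 3 AAV-GFP regions of 184 to 626 bp. At Tbx3os2 there were 3 AAV-Cre regions and 1 AAV-GFP region of 280 bp. Lncenc1, known from embryonic stem cells, and 2610035D17Rik had AAV-Cre regions and none of AAV-GFP, with the strongest at 11.6 and 8.11 by −log10 p. Dnm3os was the 1 gene of the list without a region.

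Of 7 transcripts of imprinted domains, where 1 parental allele is silent, 5 had an AAV-Cre region and 3 an AAV-GFP region within 1 kb, beside 19.9% and 9.65% of all lncRNA genes, and 7 genes are few for such a comparison. At H19 the AAV-Cre region spanned 4620 bp (fold 5.65, −log10 p 16.3), and the AAV-GFP region of 896 bp that overlapped it had a fold of 3.67 and a −log10 p of 8.49. Nespas, antisense in the Gnas domain, had 3 regions in each list within 1 kb of its start sites. At Igf2os 2 AAV-Cre regions of 18266 and 8066 bp covered start sites of Igf2. Meg3, of which the stronger region is shown above as sequence, had 2 AAV-Cre regions, of 1573 bp (fold 5.6, −log10 p 16.3) and 549 bp (fold 2.28, −log10 p 3.07), and the closest AAV-GFP region was 81423 bp away. Airn, the antisense transcript of Igf2r, had 1 AAV-Cre region of 1625 bp (fold 2.53, −log10 p 3.76), 103464 bp from the closest AAV-GFP region. Kcnq1ot1 and Mirg had no region in either list. The peak lists do not separate the parental alleles.

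The fourth list was drawn up for transcripts found in most tissues, which does not describe every member, Mir155hg among them. Of its 14 genes, 3 had an AAV-Cre region and 0 an AAV-GFP region within 1 kb. These counts are too small to set apart from the 19.9% and 9.65% over all lncRNA genes. Malat1, Neat1, Tug1 and Snhg12 were among those with none. Pvt1, the neighbour of Myc, had an AAV-Cre region of 815 bp (fold 2.99, −log10 p 5.05). At Mir155hg, the host of a microRNA of immune cells, the AAV-Cre region of 1871 bp (fold 5.21, −log10 p 14.7) ended 336 bp from an AAV-GFP region. The third was at Snhg18, where the AAV-Cre region of 3366 bp lay 136 bp from a protein-coding start site and did overlap 2 AAV-GFP regions that were farther from the Snhg18 start sites. Of 5 transcripts of liver genes, among them Hnf4aos beside the hepatocyte factor Hnf4a, 0 had a region within 1 kb in either list. These 5 genes are too few to set apart from the same 19.9% and 9.65%.

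Several of the strongest regions held microRNA genes, which were looked at after the regions had been ranked. Hairpins lay wholly inside 12 of the 1436 AAV-Cre regions (0.836%), against 0.222% of all autosomal AAV-Cre regions, which are narrower, and 0.919% of those at protein-coding start sites. For AAV-GFP it was 4 of the 871 regions (0.459%), against 0.143% of all and 0.429% at protein-coding start sites. Per region the shares were thus close to those at protein-coding start sites, where regions are wider. Per Mb of sequence, AAV-Cre had 4.87 regions with a hairpin at lncRNA start sites and 3.18 at protein-coding start sites. In AAV-GFP these values were 8.47 and 5.05, and counts of 12 and 4 are few for such a comparison. The 12 AAV-Cre regions held all 3 Mir9 genes and all 3 Mir124a genes of the annotation, which encode the microRNAs miR-9 and miR-124 of neurons. The Mir9-1 region at AI849053 and Gm3764 spanned 20855 bp (fold 11.6, −log10 p 66.8), the Mir9-3 region at Mir9-3hg 17799 bp (fold 10.9, −log10 p 56.5) and the Mir9-2 region at C130071C03Rik 3212 bp (fold 8.17, −log10 p 30.9). The Mir124a-3 region at Gm14342 and Gm27032 spanned 9225 bp with a −log10 p of 76.7, and those of Mir124a-1 and Mir124a-2 had 38.8 and 16.3. AAV-GFP regions overlapped all 3 Mir9 hairpins and 2 of the 3 Mir124a hairpins, and the closest to Mir124a-1 was 282 bp away. The overlapping AAV-GFP regions had a −log10 p of 30.4 at Mir9-1, 6.75 at Mir9-3, 24.3 at Mir124a-3 and 4.70 at Mir124a-2. The one at Mir9-2 was weak, 263 bp wide with a −log10 p of 2.45 and a q-value of 0.979.

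The 3 Mir9 genes give 1 mature miR-9-5p sequence (at Mir9-2, chr13:83738821-83738843, plus strand), and the region at Gm53 held Mir196a-1, a microRNA of the Hox clusters (chr11:96265187-96265208, plus strand). Mature sequences are from RefSeq (GRCm38.p6), with the seed, bases 2 to 8, in capitals. No seed is shared between the pair.
miR-9-5p: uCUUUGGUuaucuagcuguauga
miR-196a-5p: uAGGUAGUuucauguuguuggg

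The strongest AAV-Cre regions that overlapped AAV-GFP were examined one by one. The first was at Gm30655, with its summit in an intron of a protein-coding gene and 3659 bp from the closest start site of Ptch1, the Hedgehog receptor, with 5248 bp, a fold of 13 and a −log10 p of 79.4. It held 4 AAV-GFP regions over 69.3% of its length, the strongest of them 2812 bp wide with a −log10 p of 39.0. After the Mir124a-3 region came regions at Gm45579 (4182 bp, −log10 p 73.6), 15094 bp from the start site of Cited4, and at Gm15418 (2459 bp, −log10 p 71.1), 123513 bp from that of Col4a2. Rncr4 had a −log10 p of 71.1, and AAV-GFP regions covered 62.8% of the AAV-Cre region. The sixth was at Gm26654 with 2482 bp and a −log10 p of 69.9.

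The strongest AAV-Cre regions without overlap were weaker than these. The stronger of 2 regions at Gm28182, 6828 bp from the start site of Onecut1, a liver transcription factor, had a fold of 8.00 and a −log10 p of 29.9 over 2101 bp, and the closest AAV-GFP region was 214405 bp away. At 2810429I04Rik the region spanned 1640 bp with a fold of 7.35 and a −log10 p of 26.1, and the closest AAV-GFP region was 68972 bp away. Gm12951 (−log10 p 22.4) was 194013 bp from an AAV-GFP region and Gm36677, 28399 bp from Trib1 (−log10 p 19.2), 767347 bp. Gm42555, in an intron of a protein-coding gene 9982 bp from the start site of Bst1, had a −log10 p of 21 and lay 9947 bp from an AAV-GFP region. Another, at a lincRNA on chromosome 18 with a −log10 p of 20.6, ended 421 bp from an AAV-GFP region. Absence from the AAV-GFP list thus ranged from a gap of 421 bp to one of 767347 bp among these 6.

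The AAV-GFP regions without overlap were short, 120 to 445 bp wide. Their median −log10 p was 3.03, against 4.84 for those with overlap, but not all were weak. The strongest, at Gm43391 on chromosome 5, was 144 bp wide with a fold of 4.10 and a −log10 p of 11.3. That was above the upper quartile of 6.98 for AAV-GFP regions at lncRNA start sites. The next, at Gm21847 on the same chromosome, was 214 bp wide with a −log10 p of 5.6. Those at Rmst (196 bp), Gm2464 (126 bp) and Gm38584 (205 bp) lay 144, 332 and 14 bp from an AAV-Cre region, while the one at Gm42681 (179 bp) lay 21278 bp from one. The symbol Gm2464 belongs to 2 genes of the annotation.

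The widest AAV-Cre regions were 28174 bp at Gm15347 and Gm15353 and 23036 bp at Gm15350, antisense genes on chromosome 8 with Mcf2l as the closest protein-coding gene, and the Mir9-1 region described above. They held 29, 23 and 21 AAV-GFP regions over 49.7%, 53.6% and 66.1% of their length. The widest AAV-GFP regions were 5659 bp at Rncr4, 5257 bp at Gm12606, 4937 bp from Cdkn2a, a gene of cell cycle arrest, and 4080 bp at Gm43177. The Gm12606 region had a fold of 2.88 and a −log10 p of 8.26, below the −log10 p of 24.9 at Rncr4 and 25.4 at Gm43177. For all AAV-GFP regions at lncRNA start sites the medians were 2.76 and 4.75.

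The lncRNA genes with the most AAV-Cre regions at their start sites were Gm35853 and C230057M02Rik, followed by BC028471, 5430431A17Rik, Gm33104 and Rmst with 4 regions each. Of these BC028471 was taken as the third by its position, and Rmst is described above. Gm35853, with the keratin gene Krt80 nearby, had 6 AAV-Cre regions of 408 to 1904 bp with folds of 2.38 to 2.95 and 1 AAV-GFP region of 131 bp. C230057M02Rik had 5 of 328 to 1098 bp with folds of 1.93 to 2.6, and no AAV-GFP region at its start sites. Among these 5, the AAV-Cre region of 901 bp did overlap an AAV-GFP call, which was too far from the start sites to count. Their q-values were 0.0086 for the region of 534 bp and 0.0573 to 0.137 for the others. BC028471 had 4 AAV-Cre regions of 348 to 1470 bp with folds of 2.38 to 3.86 and 1 AAV-GFP region of 189 bp.

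At the limit of the rule, the farthest regions included were 1000 bp from a start site, at Gm49130 in AAV-Cre (1599 bp wide, fold 3.86) and at C130026L21Rik in AAV-GFP (274 bp, fold 3.78). The nearest left out were 1005 bp from Gm19610 in AAV-Cre (437 bp, fold 3.25) and 1001 bp from Gm11536 in AAV-GFP (318 bp, fold 4). A further 561 AAV-Cre and 513 AAV-GFP regions lay within 1 kb of a lncRNA start site but also within 1 kb of a protein-coding one and were left out.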

How the data were processed

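H3K27-me3 and input libraries of liver (2 each per virus, 8 in all) were processed by the authors through AQUAS in its histone mode, with the input libraries pooled. Mapping to mm10 used bwa 0.7.13, filtering used Samtools 1.2 and Picard 1.126, and MACS called the peaks. Peaks present across replicates were kept, in 1 list per virus. For each peak the deposited lists give the authors' fold enrichment over input, the −log10 of its p-value and the −log10 of its q-value, all relative to that list. The authors' display score in the deposited lists was left unused. Narrow calls split broad domains into several regions, and read counts and depth per library are not given in the sources used here.

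Groups were taken from the labels. Start sites were those of all transcripts of GENCODE M21 lincRNA and antisense genes, and of basic protein-coding transcripts, on GRCm38, on 19 autosomes. Sequence was read with pysam 0.24.0. Overlap was at least 1 bp. Shares have Wilson 95% intervals (scipy 1.17.1), and with 1 list per virus no test between viruses was made. Distances, overlaps and gene assignments were tested on simulated regions against a direct search. The members and lists were chosen with earlier results of these data known. Named are the listed genes with a region, the 6 strongest regions of 3 classes, the 3 widest of each list, the 3 genes with most AAV-Cre regions, and the regions at the 1 kb limit. Of 17 miRNA genes inside the regions, 11 matched the RefSeq sequence table. Alternatives are given in the closing section.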

Additional observations from a re-analysis of the deposited data

How the results depend on the processing

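No paired analysis was possible because each list was made from both mice of a group and no result comes from a test between replicates. For the same reason no replicate could be left out. Of 72 values under 11 alternatives, 46 stayed within 1.5 times the reported count or within the interval of the reported share. The others were as follows. At a q-value of 0.05 or lower there were 524 AAV-GFP regions, and the overlapping shares were 23.1% (AAV-Cre) and 98.7% (AAV-GFP). With both lists limited to their 34307 strongest peaks the shares were 44.5% and 93.3%, and 490 genes were marked in AAV-Cre alone. With 5 kb around the lncRNA start site there were 4174 and 2828 regions, shares of 24.1% and 93.3%, 848 genes in both lists and 1188 in AAV-Cre alone. With 500 bp there were 561 AAV-GFP regions and shares of 35.4% and 97.5%. Beyond 5 kb from protein-coding start sites 43 genes were marked in AAV-GFP alone. With a width of 300 bp or more, which removes short AAV-GFP regions by construction, there were 414 AAV-GFP regions, shares of 18.7% and 99.0%, 236 genes in both lists and 81 in AAV-GFP alone. With a required cover of 0.5 of a region's length, 6.55% of the AAV-Cre regions were shared. With peaks within 1 kb merged there were 414 AAV-GFP regions. Counting any region within 1 kb, chosen after seeing the data, gave 769 genes in both lists, 15 in AAV-GFP alone, and 10.3% of the AAV-Cre genes with a developmental transcription factor as the closest protein-coding gene. Except where the construction shows it, the cause was not tested. The share of overlapping AAV-GFP regions ran from 93.3 to 99.0%, and that of AAV-Cre from 6.55 to 44.5%.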

Other observations

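Some lncRNA genes were outside the rule by their type or chromosome. Of 1299 autosomal genes annotated as processed transcripts, as sense transcripts or as sharing a bidirectional promoter, 279 (21.5%) had an AAV-Cre region and 187 (14.4%) an AAV-GFP region within 1 kb, beside 19.9% and 9.65% of the lincRNA and antisense genes. The genes named next are examples from the lists by role, chosen after their values were seen. Among them Hand2os1, beside the heart factor Hand2, had 6 AAV-Cre and 11 AAV-GFP regions, Sox2ot, which overlaps Sox2, had 5 and 9, and Haglr in the HoxD cluster had 3 and 6. Fendrr, next to Foxf1, had 2 and 1. Dleu2 had 1 AAV-Cre region and Gm16551, from the liver list, had 2, and neither had an AAV-GFP region. Gas5, Dancr, Zfas1 and Snhg1 had no region in either list. Of 691 lincRNA and antisense genes on the X and Y chromosomes, 11 (1.59%) had an AAV-Cre region and 9 (1.30%) an AAV-GFP region within 1 kb. On the autosomes these shares were 19.9% and 9.65%. Counted as regions that met the distances of the rule, X and Y had 5 in AAV-Cre and 10 in AAV-GFP.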
